A study of Mus musculus with 2 samples.

Results

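The genes described here are the 41 autosomal protein-coding genes of GENCODE M21 that encode collagen chains, found by their symbols (Col, a type number, a and a chain number) among 20807 autosomal protein-coding genes. Another 3 genes with collagen symbols were left out, by chromosome or by the rule. The data are DNase-seq, an assay in which nuclei are lightly digested with deoxyribonuclease I so that cuts pile up in open chromatin, from the urinary bladders of 2 female mice that were 36 days old. They were B6CASTF1/J mice, the first-generation cross of a C57BL/6 and a CAST parent. The labels number the animals 5 and 6, called replicates 1 and 2 here, and they form 1 group with no control, treatment or second tissue. Each has its own biosample, and both carry the same donor record of the strain. No test between groups was therefore possible: values are given for each animal, the members are set beside all autosomal protein-coding genes, and no p-value is given.

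Collagens are extracellular proteins whose chains wind into triple helices. Fibrillar collagens form the tensile fibres of connective tissue, type IV collagens form the sheet under epithelia and around muscle cells, type VI collagens form beaded filaments near cell surfaces, FACIT collagens decorate fibrils, and a further set is typical of cartilage. The bladder wall has a urothelium on a basement membrane, a collagen-rich lamina propria with fibroblasts, and a smooth muscle layer. In such a whole tissue, fewer cells of a type and less open DNA per cell cannot be told apart.

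The larger peak list of each animal held 114881 autosomal peaks in replicate 1 and 100144 in replicate 2, and 274343 and 242586 autosomal footprints were listed, which are short stretches protected from cutting within open chromatin. A promoter was called open when a peak came within 1 kb of the outermost annotated start of the gene. All 6 markers each of urothelium, smooth muscle and fibroblasts had open promoters in both animals, against 63.5% of all autosomal protein-coding genes. None of 4 liver markers did, and of 8 cartilage markers 4 did (Chad, Hapln1, Matn3 and Sox9). The marker lists were chosen with earlier results of these data known. Peak height is the authors' own signal on a scale that is not given in the sources used here, so heights are compared within an animal. The liver markers Apoa2 and Ttr had promoter peaks of 0.624 and 0.355 in replicate 1 only. These were higher there than the 0.316 of the fibroblast marker Lum, so the marker contrast rests partly on low peaks.

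Promoters of the classes that build connective tissue were mostly open, and those of cartilage collagens mostly were not. With the head-to-head pairs Col4a1/Col4a2 and Col4a3/Col4a4 each counted as 1 promoter, 25 of 39 collagen promoters (64.1%) had a peak in both animals, against 63.5% of all autosomal protein-coding genes, so collagen genes as a whole sat at the background. By class, 7 of 8 fibrillar, 2 of 2 basement membrane, 5 of 6 beaded filament, 5 of 6 FACIT, 1 of 7 cartilage and 5 of 10 other promoters were open in both animals. The classes do not overlap, and they were drawn up with earlier results of these data known. The cartilage class holds the fibrillar chains Col2a1, Col11a1 and Col11a2, the FACIT chains Col9a1, Col9a2 and Col9a3, and the network chain Col10a1. Sorting these chains by structure instead would lower the fibrillar and FACIT shares, so the contrast between classes depends partly on this sorting. The counts of several classes rested on low peaks: with only the higher 50% of the peaks of each animal kept, 15 of the 39 promoters stayed open, against 57.1% of all genes, and by class 6 of 8 fibrillar, 1 of 2 basement membrane, 3 of 6 beaded filament, 3 of 6 FACIT and 0 of 7 cartilage promoters did. Replicate 1 alone had 28 open collagen promoters, against a background of 65.8%, and replicate 2 alone had 25, against 64.8%. With the window narrowed to 500 bp on either side, 22 of the 39 promoters were open in both animals, with 5 of 8 fibrillar and 4 of 6 beaded filament promoters. The share of all genes in that window was not computed. Col11a2, Col20a1 and Col25a1 had a promoter peak in replicate 1 only. No peak was listed in either animal at 11 promoters, those of Col2a1, Col9a1, Col9a2, Col9a3 and Col10a1 of cartilage, and of Col6a4, Col7a1, Col8a2, Col26a1, Col27a1 and Col28a1.

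**Figure D1:**
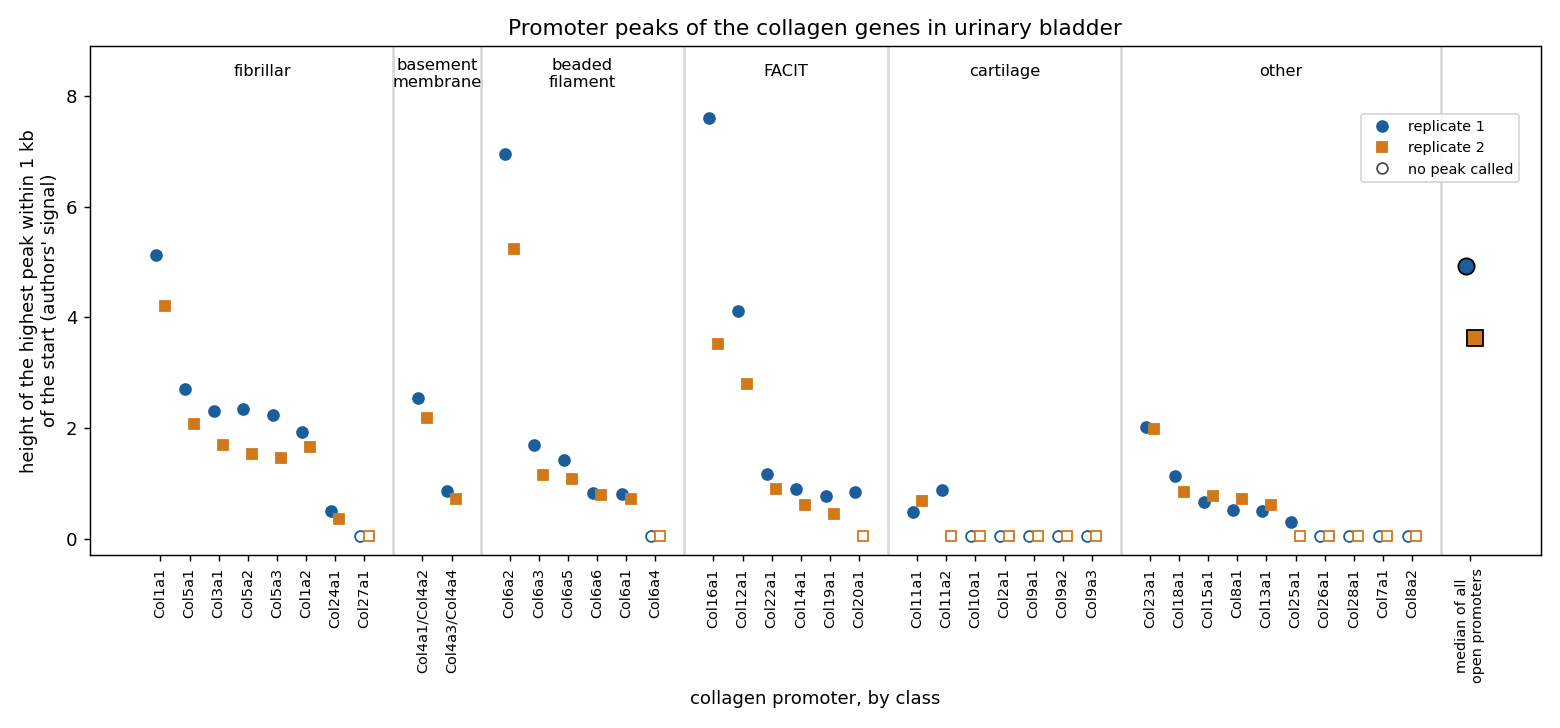
Height of the highest peak within 1 kb of the start (authors' signal, vertical axis) at each of the 39 collagen promoters, ordered within class, with the median of all open promoters at the right; circles are replicate 1, squares replicate 2, and hollow marks mean that no peak was called. Col6a2, Col16a1 and Col1a1 stand highest, most other open collagen promoters lie under 3, and 5 of the 7 cartilage promoters have hollow marks in both animals.

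The sequences below were chosen to show promoters of open and of unopened collagen genes side by side. They are the 250 bases before the RefSeq start on GRCm38 (mm10), from the RefSeq promoter table, which holds 32 of the 41 members. They read 5′ to 3′ on the gene's strand, and capitals mark bases inside footprints of both animals. Col5a3, a fibrillar chain, lies at chr9:20815068-20815317 on the minus strand. Col6a3, a beaded filament chain, lies at chr1:90843972-90844221 on the minus strand. Col11a1, a cartilage fibril chain, lies at chr3:114030290-114030539 on the plus strand. Col10a1, the hypertrophic cartilage chain, lies at chr10:34389731-34389980 on the plus strand. Col9a1, a cartilage FACIT chain, lies at chr1:24177360-24177609 on the plus strand.
Col5a3 promoter: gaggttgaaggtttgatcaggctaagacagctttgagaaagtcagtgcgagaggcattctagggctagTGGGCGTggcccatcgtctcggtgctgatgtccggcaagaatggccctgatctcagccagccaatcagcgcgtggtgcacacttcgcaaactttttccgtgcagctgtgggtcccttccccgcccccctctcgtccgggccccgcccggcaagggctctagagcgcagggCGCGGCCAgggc
Col6a3 promoter: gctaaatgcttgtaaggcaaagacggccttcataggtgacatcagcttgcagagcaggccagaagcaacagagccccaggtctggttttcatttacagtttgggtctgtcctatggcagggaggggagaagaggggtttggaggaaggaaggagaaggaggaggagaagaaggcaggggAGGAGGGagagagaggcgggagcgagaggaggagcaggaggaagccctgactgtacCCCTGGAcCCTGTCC
Col11a1 promoter: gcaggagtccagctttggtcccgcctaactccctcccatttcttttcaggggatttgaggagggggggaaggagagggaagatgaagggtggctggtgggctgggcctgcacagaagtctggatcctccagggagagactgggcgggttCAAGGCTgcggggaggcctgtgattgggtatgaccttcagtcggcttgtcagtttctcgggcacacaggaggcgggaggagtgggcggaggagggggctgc
Col10a1 promoter: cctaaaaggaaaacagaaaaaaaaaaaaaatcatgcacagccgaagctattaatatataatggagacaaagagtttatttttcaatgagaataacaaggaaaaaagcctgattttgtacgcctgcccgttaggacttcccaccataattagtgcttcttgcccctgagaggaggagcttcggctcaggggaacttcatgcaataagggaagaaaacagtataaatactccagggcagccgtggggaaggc
Col9a1 promoter: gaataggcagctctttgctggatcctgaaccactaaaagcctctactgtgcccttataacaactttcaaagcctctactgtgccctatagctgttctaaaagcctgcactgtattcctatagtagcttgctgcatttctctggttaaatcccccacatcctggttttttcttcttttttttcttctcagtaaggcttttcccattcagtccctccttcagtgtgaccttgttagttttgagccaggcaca
Footprints of both animals covered 15 bases of the Col5a3 sequence, 21 of Col6a3 and 7 of Col11a1, and 0 bases of Col10a1 and Col9a1. The Col6a3 sequence was open with 3 CpG dinucleotides, and Col9a1 held none. Col10a1 carried the letters TATAAA 32 bases before its start and ACAAAG, a core bound by SOX factors, and neither match was protected. Footprints lie within open chromatin, and Col10a1 and Col9a1 had no promoter peak. The lack of protection there therefore says nothing about these letters.

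Open collagen promoters were low next to other open promoters. The median height was 1.15 in replicate 1 and 1.09 in replicate 2 over collagen promoters open in the given animal, against 4.92 and 3.63 over all promoters open there. Of the 27 open members, Col1a1 and Col6a2 lay above the all-gene median in both animals. Col16a1 did so in replicate 1 only. Heights were higher in replicate 1 at 23 of the 27 open members, as was the median over all open promoters, so a higher value in replicate 1 at a single gene is not particular to that gene. Heights ranged between 0.357 and 5.24 in replicate 2 over the promoters open there.

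Among fibrillar collagens, Col1a1 encodes the main chain of type I collagen. Its promoter height was 5.13 in replicate 1 and 4.20 in replicate 2 (4.66 ± 0.662, SD, n = 2). This highest peak was centred at +956 bp inside the gene (chr11:94937081-94937280), while the peak at the start itself, centred 34 and 24 bp upstream, had heights of 3.40 and 2.50. Narrowing the window to 500 bp on either side therefore lowered the Col1a1 value to 2.95. Footprints of both animals at Col1a1 were centred 94 bp and about 64 bp upstream of the start. Extended by 5 bp, they held the letters CCAAT on the strand opposite to the gene. At the footprint nearer to the start, most of these letters lay in the extension in replicate 2. A footprint centred at +4 bp held the letters TATAAA, which began at the annotated start itself. CCAAT boxes and a TATA box are known elements of type I collagen promoters.

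Col1a2, the second chain of type I collagen, had heights of 1.93 and 1.66. Its main peak was centred 756 and 706 bp inside the most upstream annotated start, and replicate 2 alone had a peak within 500 bp of that start. Col3a1, the type III chain that accompanies type I in distensible organs, had 2.31 and 1.69. The type V chains, which set fibril diameter, were close to it, with 2.70 and 2.07 at Col5a1, 2.34 and 1.54 at Col5a2, and 2.24 and 1.46 at Col5a3. Of these 5 genes, Col1a2 to Col5a3, Col5a1 was the highest within each animal, and the order of the others differed between the animals. Col24a1, a rarer fibrillar chain, had 0.497 and 0.357, the lowest fibrillar values. These were different peaks, centred 58 bp inside the start in replicate 1 and 964 bp inside it in replicate 2. Replicate 1 also had a peak of 0.332 that overlapped the latter.

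Col27a1, a fibrillar chain best known from cartilage, had no peak at its most upstream start in either animal. Its next annotated starts, 1408 and 1431 bp further in, lay under a peak of 2.44 in replicate 1 and 2.40 in replicate 2. The 250 bases before the RefSeq start there (chr4:63215162-63215411, plus strand) are shown because the closed call depends on which start is taken, with capitals as above.
Col27a1 promoter: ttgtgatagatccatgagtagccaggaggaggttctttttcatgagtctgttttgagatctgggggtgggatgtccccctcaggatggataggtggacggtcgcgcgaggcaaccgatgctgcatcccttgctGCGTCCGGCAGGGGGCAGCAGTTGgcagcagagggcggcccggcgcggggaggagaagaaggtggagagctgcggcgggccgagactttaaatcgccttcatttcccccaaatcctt
The 24 protected bases formed 1 stretch. It held CCGGCAGGGGGC, a match to a pattern of the insulator protein CTCF that was added after the data were seen, namely CC, any 3 bases, AG, any 2 bases and GGC. All 12 matched bases were protected in both animals.

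Taking any annotated start, and counting each Col4 gene separately, 30 of 41 genes had a peak in both animals, against 68.3% of all genes. Those added were Col25a1 (1.90 and 1.17), Col26a1 (1.40 and 1.51) and Col27a1. The highest peak of the 1 kb window covered the most upstream start itself at 15 of 41 genes in both animals, against 36.8% of all genes. Starts under a lower peak are not counted here. Of the 41 genes, 10 had no base within 1 kb of the start that passed a false discovery rate of 0.05 in either animal, against 31.8% of all genes, and 5 of these were cartilage genes. Col7a1, the anchoring fibril chain, had no such base in replicate 1 and 8 bases in replicate 2.

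The basement membrane promoters serve 2 genes each. The starts of Col4a1 and Col4a2, the chains of nearly all basement membranes, lie 21 bp apart on chromosome 8, and the peak over them had a height of 2.55 in replicate 1 and 2.17 in replicate 2. Its window held 10 and 11 footprints. The starts of Col4a3 and Col4a4, chains typical of the kidney glomerulus, lie 72 bp apart on chromosome 1, and the shared peak was lower, at 0.860 and 0.722. The Col4a3/Col4a4 peak was the lower one within each animal.

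Beaded filament genes differed widely among themselves. Col6a2 had the highest values, 6.95 and 5.24, followed by Col6a3 with 1.69 and 1.16. Col6a1, whose chain assembles with both in a trimer, had 0.813 and 0.713. Of the chains that can replace Col6a3, Col6a5 had 1.42 and 1.09, Col6a6 had 0.821 and 0.798, and Col6a4 had no peak. Footprints of both animals at these starts are shown for Col6a2, the highest peak of the class, 180 bp inside the start (chr10:76623436-76623465, minus strand), and for the Col4a1 side of its shared promoter, 89 bp inside the start (chr8:11312723-11312752, minus strand), each 30 bases on the gene's strand with capitals as above.
Col6a2 footprint: ATCCGCGGGGCCGCAGCGCCCCCCAGCGGT
Col4a1 footprint: ctcaggtCTCTGCGCAGagtCACcgcaccc
All 30 bases of the Col6a2 stretch were protected in both animals, and 13 bases of the Col4a1 stretch were.

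Within the FACIT class, Col16a1, a chain found near smooth muscle and epithelia, had 7.59 in replicate 1 and 3.52 in replicate 2, the widest spread between animals of any collagen promoter (SD 2.88, n = 2), which includes any difference in height scale between them. Col12a1, found on type I fibrils of tendon and fascia, had 4.11 and 2.80. Col14a1, which also decorates type I fibrils, had 0.908 and 0.612. Col22a1 had 1.18 and 0.900, and Col19a1 had 0.766 and 0.450. Col20a1 had 0.845 in replicate 1, and no peak in replicate 2.

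Of the cartilage collagens, Col11a1 alone had a promoter peak in both animals, with 0.489 in replicate 1 and 0.679 in replicate 2, and type XI collagen also occurs outside cartilage. Col11a2 had 0.884 in replicate 1 only. Col2a1, the main cartilage fibril chain, Col9a1, Col9a2 and Col9a3 of type IX and Col10a1 had no peak. Among the other members, the multiplexins Col15a1 and Col18a1, which lie in the zone around basement membranes, had 0.655 and 0.764, and 1.13 and 0.841. For Col18a1 the inner start of the principal transcript, 52843 bp into the gene, lay within 1 kb of a higher peak, with 4.41 and 3.15. The transmembrane chain Col23a1 had 2.02 and 1.99, Col8a1 of the short-chain network had 0.513 and 0.713, and the transmembrane chain Col13a1 had 0.505 and 0.603.

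Promoter base composition divides genes strongly, so openness was also read within composition groups, on the 250 bp before to 50 bp after the start. Among CpG-poor promoters (observed over expected CpG under 0.5), 13 of 24 collagen genes were open in both animals, against 30.8% of all genes of that group. These included 5 of 5 fibrillar and 5 of 6 beaded filament genes, and 1 of 6 cartilage genes. Among the other promoters, 14 of 17 collagen genes were open, against 92.7%, and the exceptions were Col2a1, Col8a2 and Col27a1. Counting each Col4 pair as 1 promoter gave 12 of 23 CpG-poor and 13 of 16 other promoters. Heights differed from those of all genes less in the CpG-poor group than in the other. Each Col4 pair was counted once here, under Col4a1 or Col4a3. CpG-poor collagen promoters with a peak in the given animal had median heights of 1.18 in replicate 1 and 1.12 in replicate 2. All promoters of that group with a peak in the given animal had 1.67 and 1.39. Over the 12 CpG-poor collagen promoters open in both animals the medians were 1.56 and 1.12. Collagen promoters of the other group had 1.13 and 0.841 by either count, against 6.24 and 4.29 over all with a peak in the given animal. Collagen genes are also long, with a median of 114 kb against 17.6 kb. Of the 24 collagen genes of 100 kb or more, 19 were open in both animals (79.2%), against 78.7% of all genes of that length. Both genes of each Col4 pair are among these 24. Among shorter genes the collagen share was the lower one. Under 30 kb, 3 of 9 were open in both animals (33.3%), against 56.0% of all genes of that length. At 30 to 100 kb, 5 of 8 were (62.5%), against 76.5%.

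Short motifs were searched on both strands of the same 300 bp windows, with a window for each gene, also within the Col4 pairs. GGGCGG, a core bound by SP and KLF factors, occurred in 21 of 41 collagen promoters (51.2%), against 43.7% of all, and in 9 of the 24 CpG-poor ones, against 14.7% of CpG-poor promoters of all genes. CCAAT occurred in 15 of 41 (36.6%), against 38.6%, and in 7 of the 24 CpG-poor ones, against 39.2%. TATAAA occurred in 5 (Col1a1, Col3a1, Col10a1, Col13a1 and Col14a1; 12.2%), against 12.7%, and in 3 of the 24 CpG-poor ones, against 19.8%. CANNTG, the E-box letters, occurred in 21 of 41 (51.2%), against 69.6%, and in 12 of the 24 CpG-poor ones, against 79.4%. A match is a description of letters and does not show that a factor binds.

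Peaks outside the gene's own promoter were densest around fibrillar genes by class median. A distal peak is one inside the gene or within 20 kb of its ends that does not touch the gene's own promoter window. Of 41 collagen genes, 36 had 3 or more in both animals, against 61.3% of all genes, the exceptions being Col3a1, Col6a2, Col10a1, Col11a1 and Col22a1. This count grows with the length searched, and collagen genes are longer (median 114 kb against 17.6 kb). The share among all genes of like length was not computed, so the count is not read as a trait of collagen genes. Over all collagen genes the median was 0.697 distal peaks per 10 kb in replicate 1 and 0.534 in replicate 2, against 0.638 and 0.535 over all genes. At like length the collagen medians were 0.962 and 0.801 under 30 kb (9 genes), against 0.711 and 0.613. They were 1.18 and 1.14 at 30 to 100 kb (8 genes), against 0.612 and 0.533. At 100 kb or more (24 genes) they were 0.436 and 0.382, against 0.453 and 0.380. The fibrillar median was 1.11 and 0.974, above the all-gene value in both animals. The other medians were 0.883 and 0.629 for basement membrane, 0.744 and 0.508 for beaded filament, 0.635 and 0.514 for FACIT, 0.596 and 0.447 for cartilage, and 0.488 and 0.490 for the rest. Distal peaks include those at starts of neighbours and at inner starts of the same gene. With peaks within 1 kb of any annotated start left out, the medians were 0.913 and 0.774 for fibrillar and 0.817 and 0.600 for basement membrane genes, against 0.399 and 0.317 over all genes. Pooled over the bases of a class instead, the order of these classes was the other way round in both animals: basement membrane genes held 57 and 47 such peaks, or 0.877 and 0.723 per 10 kb, and fibrillar genes 81 and 74, or 0.768 and 0.701 per 10 kb, against 0.516 and 0.435 over all genes. Cartilage genes had the lowest pooled values, 0.281 and 0.228. Pooling counted peaks and bases in overlapping loci of neighbours once for each gene, as at both Col4 pairs and at Col3a1 with Col5a2. The order of the classes with these counted once was not computed.

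**Figure D2:**
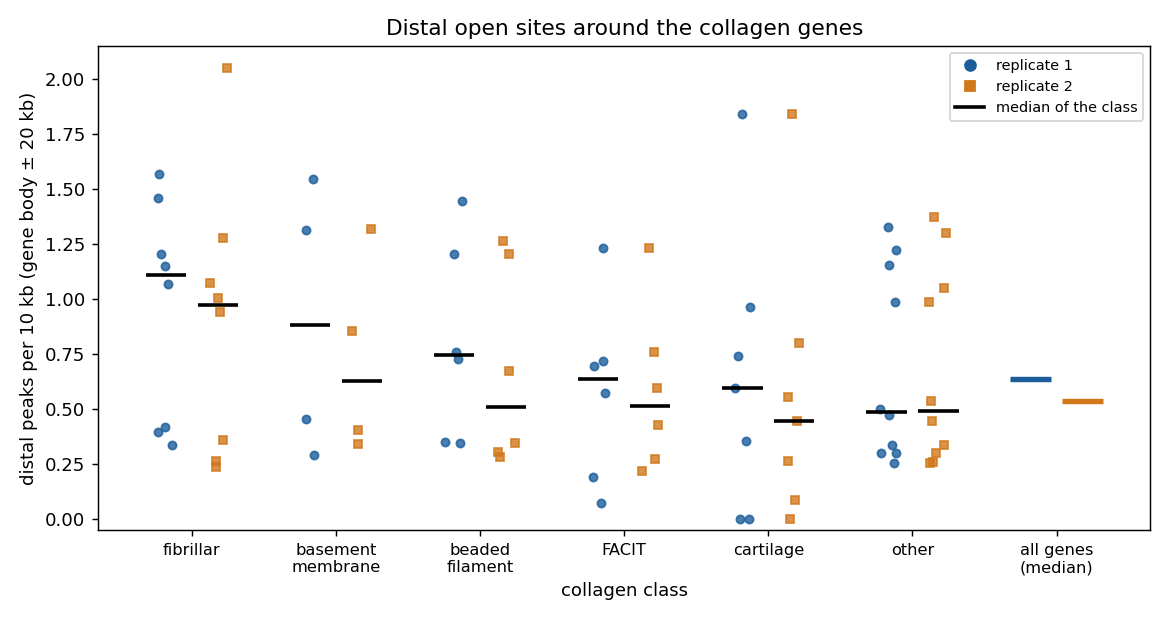
Distal peaks per 10 kb of gene with 20 kb flanks (vertical axis) for each collagen gene by class, with the median of all genes at the right; circles are replicate 1, squares replicate 2, black bars class medians, and points are spread sideways for legibility only. Fibrillar medians of 1.11 and 0.974 lie highest, and in replicate 1 the genes of every class spread from under 0.4 to over 1.1.

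The 5 genes with the highest mean density were Col11a2, Col5a3, Col4a2, Col1a1 and Col6a1. Col5a3 had 1.57 and 2.05 distal peaks per 10 kb, Col4a2 had 1.55 and 1.32, Col1a1 had 1.46 and 1.28, and Col6a1 had 1.44 and 1.26. Col11a2 had 1.84 in both animals, but 8 of 13 peaks in replicate 1 and 9 of 12 in replicate 2 around it lay at starts of other genes. Over the whole cartilage class, 14 of 32 and 14 of 29 peaks lay at other genes' starts, against 2 of 102 and 3 of 93 for fibrillar genes. The lowest densities were at Col10a1 with 0 in both animals, Col11a1 with 0 and 0.0877, and Col22a1 with 0.0724 and 0.217. The 5 highest peaks of replicate 1 around any collagen gene all lay at starts of neighbours, namely Pef1 near Col16a1 (15.7 and 9.47), Rxrb and Slc39a7 near Col11a2, Adprhl2 near Col8a2, Phykpl near Col23a1 and Mrgbp near Col9a3.

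With bases within 1 kb of any start left out, first introns of fibrillar genes held 1.01 peaks per 10 kb in replicate 1 and 1.10 in replicate 2, against 0.565 and 0.465 over first introns of all genes. Their other introns held 0.679 and 0.645, against 0.398 and 0.330. Cartilage genes had 0 and 0.380 in first introns, which is 0 and 1 peak, and 0.260 and 0.148 in other introns. First introns of FACIT genes held 0.847 and 1.35, from 5 and 8 peaks, so these small classes rest on few peaks.

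**Figure D3:**
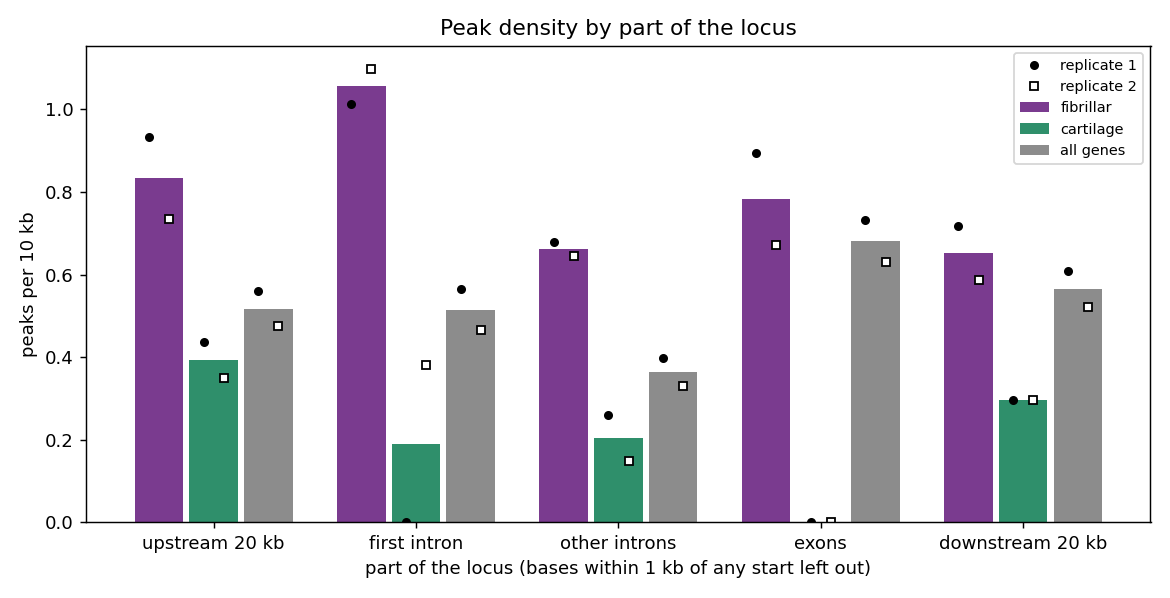
Peaks per 10 kb (vertical axis, from 0) by part of the locus for fibrillar and cartilage collagen genes and all genes; bars are means of both animals, dots replicate 1 and squares replicate 2. Fibrillar genes lie above all genes in upstream sequence and introns, and cartilage genes lie below them in both intron classes and upstream.

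Individual distal sites were then compared, leaving out those at starts of other genes. The highest found in both animals lay 16.1 kb upstream of Col5a3, with 8.72 and 5.91. It was followed by sites in Col18a1 at 35.8 kb (7.15 and 6.00), between its outer and inner starts, in an intron of Col23a1 at 250 kb (7.10 and 4.96), and in an intron of Col16a1 at 39.7 kb (6.03 and 5.02). A site 1.52 kb upstream of Col13a1 had 5.24 and 3.91, far above the 0.505 and 0.603 of its promoter. Col8a2, with no promoter peak, had an intronic site at 23.3 kb with 5.01 and 3.20.

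Around the type I genes, Col1a1 had 10 peaks in replicate 1 and 9 in replicate 2. Its highest distal site lay at -7.22 kb, with 4.52 and 2.96, and another lay at 22.0 kb, beyond the gene's end, with 3.21 and 2.47. Col1a2 had 3 upstream sites close together, at -16.3 kb (1.88 and 1.32), -15.3 kb (1.49 and 1.17) and -14.8 kb (1.08 and 0.883), all found in both animals. A far-upstream enhancer active in fibroblasts of transgenic mice is known for Col1a2. Col6a1 had 6 upstream peaks in replicate 1 and 5 in replicate 2, all 5 of them shared, the highest at -9.05 kb with 3.21 and 2.71. All of these Col6a1 sites but 1 in replicate 1 exceeded the 0.813 and 0.713 of its promoter. Col3a1, in contrast, had 3 and 2 distal peaks, none of which was found in both animals. In the first intron of Col26a1, which had no peak at its outer start, a site at 1.65 kb had 2.35 and 1.84. In cartilage, Col2a1 had 1 shared site away from starts, an intronic peak at 11.6 kb with 2.76 and 1.75.

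**Figure D4:**
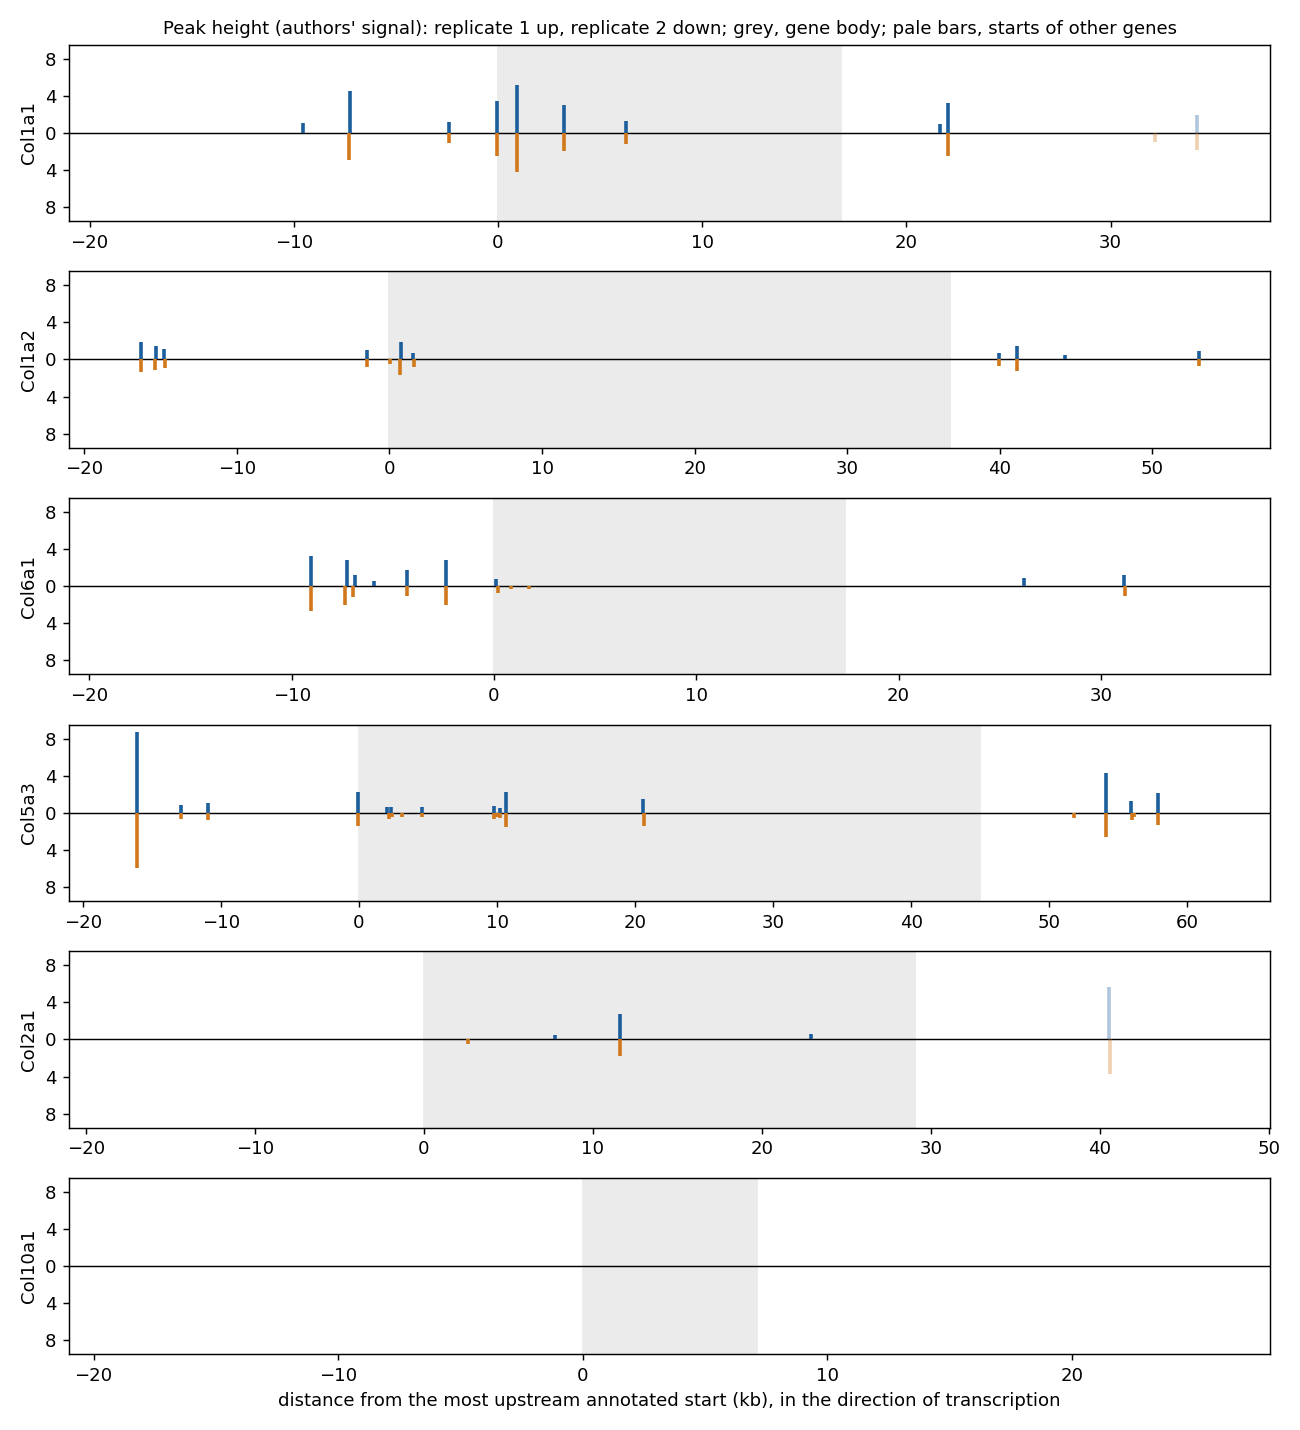
Peak heights (authors' signal, vertical axis; replicate 1 upward, replicate 2 downward) along 6 collagen genes against distance from the most upstream start in kb; grey marks the gene body and pale bars peaks at starts of other genes. Col1a1, Col1a2, Col6a1 and Col5a3 have series of peaks that recur in both animals, Col2a1 has 1 shared intronic peak, and Col10a1 has none.

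The sequences of sites on which these comparisons turn follow, on the gene's strand of GRCm38 (mm10), as called in replicate 1 and with capitals for bases in footprints of both animals. They lie at chr11:94937081-94937280 for the Col1a1 gene body peak and chr11:94928861-94929140 for its upstream peak (plus strand), and at chr6:4489421-4489640 for the Col1a2 upstream peak (plus strand). The Col5a3 upstream peak lies at chr9:20831021-20831240 and the Col6a1 upstream peak at chr10:76735121-76735320 (minus strand). The intronic peaks lie at chr4:130087441-130087640 for Col16a1 (plus strand) and chr5:136790941-136791100 for Col26a1 (minus strand).
Col1a1 gene body peak: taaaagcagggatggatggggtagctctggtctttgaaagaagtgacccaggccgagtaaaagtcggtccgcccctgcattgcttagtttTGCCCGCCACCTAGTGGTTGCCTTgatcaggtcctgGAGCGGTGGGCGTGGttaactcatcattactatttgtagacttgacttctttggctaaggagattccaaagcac
Col1a1 upstream peak: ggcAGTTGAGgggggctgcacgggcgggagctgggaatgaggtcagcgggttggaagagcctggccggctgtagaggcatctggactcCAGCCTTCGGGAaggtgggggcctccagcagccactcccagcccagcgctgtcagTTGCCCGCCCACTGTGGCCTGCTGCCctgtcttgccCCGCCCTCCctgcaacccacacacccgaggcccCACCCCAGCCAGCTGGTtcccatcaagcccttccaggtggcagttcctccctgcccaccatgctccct
Col1a2 upstream peak: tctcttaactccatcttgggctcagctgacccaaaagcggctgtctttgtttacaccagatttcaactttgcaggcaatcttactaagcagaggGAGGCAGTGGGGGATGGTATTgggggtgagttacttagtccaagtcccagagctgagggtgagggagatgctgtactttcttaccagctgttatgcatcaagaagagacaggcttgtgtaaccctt
Col5a3 upstream peak: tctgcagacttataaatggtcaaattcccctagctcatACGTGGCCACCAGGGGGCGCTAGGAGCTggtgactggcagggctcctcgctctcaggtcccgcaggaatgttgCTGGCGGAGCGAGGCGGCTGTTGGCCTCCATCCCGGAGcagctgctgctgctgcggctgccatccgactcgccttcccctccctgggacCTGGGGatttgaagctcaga
Col6a1 upstream peak: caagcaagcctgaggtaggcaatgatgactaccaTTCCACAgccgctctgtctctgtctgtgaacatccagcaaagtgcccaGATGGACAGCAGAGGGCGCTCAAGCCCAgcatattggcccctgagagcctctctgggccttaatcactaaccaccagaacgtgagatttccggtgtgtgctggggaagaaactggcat
Col16a1 intron peak: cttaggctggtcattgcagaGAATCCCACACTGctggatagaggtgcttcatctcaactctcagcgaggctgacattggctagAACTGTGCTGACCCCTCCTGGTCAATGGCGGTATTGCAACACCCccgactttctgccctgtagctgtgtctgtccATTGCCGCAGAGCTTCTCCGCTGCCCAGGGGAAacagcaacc
Col26a1 intron peak: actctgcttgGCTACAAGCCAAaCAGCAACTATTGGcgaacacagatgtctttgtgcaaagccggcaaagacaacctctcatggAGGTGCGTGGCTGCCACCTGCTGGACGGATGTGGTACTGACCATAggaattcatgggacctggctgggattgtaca
The Col1a1 gene body peak, the Col5a3 upstream peak and the Col26a1 peak each held 1 fully protected match to the longer CTCF pattern given above. The Col16a1 peak held a fully protected CCAGGAGGG, which matches CCAGNAGGG, a CTCF core. In the Col1a1 upstream peak, 2 of its 3 GGGCGG matches were fully protected in both animals. The Col1a2 upstream peak held 1 CCAAT on the opposite strand, with 5 bases protected in replicate 1 and 3 in replicate 2. The Col26a1 peak, at 92.2 kb with heights of 4.26 and 2.99, held TTGGCTACAAGCCAA, a palindrome of the kind bound by NFI factors, with 12 and 13 of its bases protected.

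By the median of all members, protected stretches were sparser over collagen genes than over genes at large, but not among genes of like length under 100 kb. The median was 1.52 footprints per 10 kb in replicate 1 and 1.33 in replicate 2, against 2.12 and 1.97 over all genes. For genes of 100 kb or more the medians were 1.23 and 0.824 for collagen genes, against 1.16 and 1.02 for all genes, so the values lay on different sides in the animals. The 8 collagen genes of 30 to 100 kb had 2.92 and 3.08, against 2.04 and 1.90 for all genes of that length. The 9 under 30 kb had 2.64 in both animals, against 2.58 and 2.44. Fibrillar genes had the densest footprints of the classes, with medians of 2.83 and 2.61. Of 1000 footprints around collagen genes in replicate 1 and 902 in replicate 2, 4.8% and 5.43% held GGGCGG when extended by 5 bp, against 8.88% and 9.04% of footprints around all genes. CANNTG was held by 12% and 11.3%, against 9.75% and 8.70%. The longer CTCF pattern was held by 4.7% and 4.88%, against 3.75% and 3.80%. It was added after the data were seen, so its share is a description only. CCAAT was held by 2.4% and 2.77%, against 3.08% and 3.15%.

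The share of collagen peaks found in both animals lay above that of all peaks in replicate 1 and below it in replicate 2. Once overlapping loci were joined, the collagen genes occupied 35 stretches of 6.29 Mb in all, with 425 peaks in replicate 1 and 411 in replicate 2. Of these peaks, 76.2% and 77.9% overlapped a peak of the other animal, against 71.6% and 80.8% of all peaks. Of footprints, 46.6% and 51.8% were found in the other animal, against 44.8% and 52.2%. Only 5 of the stretches held several members, among them Col6a4, Col6a5 and Col6a6, Col3a1 with Col5a2, and Col9a1 with Col19a1, and their 11 genes share peaks with their neighbours.

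Summed peak height over each gene with 20 kb flanks, as log2 of replicate 1 over replicate 2 with a pseudocount of 1, had a median of 0.38 over collagen genes, against 0.46 over all genes. Relative to the all-gene median this is -0.082 (quartiles -0.22 and 0.03, against -0.26 and 0.18 over all genes). By this measure 12 of the 40 collagen genes with a peak in either animal were higher in replicate 1 than the median gene, against 56% of all genes with a peak. Col10a1, with no peak, was not counted. Setting only genes with a peak against the median of such genes gave -0.12 for the collagen genes. Leaning most to replicate 1 were Col7a1 (0.22), Col16a1 (0.18) and Col2a1 (0.13), and to replicate 2 Col11a1 (-1.04), Col19a1 (-0.74) and Col22a1 (-0.72). The summed heights of these last 3 were low, with 0.489 and 1.22 at Col11a1, 4.42 and 5.61 at Col19a1, and 2.63 and 3.34 at Col22a1. Covered length went with them, with 220 and 720 bp at Col11a1. Beside this, all 6 urothelium markers were higher in replicate 1 (median 0.40), while smooth muscle and fibroblast markers had medians of 0.07 and -0.07 with 3 of 6 higher each. The part of tissue composition in the lean of the collagen loci was not tested.

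Promoters of genes that process, bind or break down collagen were open in a larger share than those of the chains. Of 37 genes for hydroxylation, folding, trimming, cross-linking, binding and breakdown of collagen, 33 had a promoter peak in both animals, against 63.5% of all genes. Fkbp10 and P3h4 lie head to head, and in replicate 2 the same peak (3.80) was counted for both. The highest were P4hb (19.0 and 9.19) and P4ha1 (14.5 and 8.37), the subunits of prolyl 4-hydroxylase, and the prolyl 3-hydroxylase P3h1 (13.6 and 7.45). Serpinh1, the collagen chaperone, had 5.07 and 3.74, and Lox, a cross-linking oxidase, had 1.93 and 1.39. At the outermost start, the genes without a promoter peak in both animals were Sparc, Loxl2 and Mmp13, with none in either, and P4ha3, with 0.459 in replicate 2 only. Taking any annotated start, 35 of 37 had a peak in both animals, against 68.3% of all genes: Sparc had 2.60 and 1.83, and P4ha3 had 1.64 and 0.662. The median height over the open promoters of these genes was 2.37 and 1.99, between the 1.15 and 1.09 of collagen genes and the 4.92 and 3.63 of all genes. Their CpG content was also higher, with a median observed over expected ratio of 0.687, against 0.435 for collagen genes. Of all genes with a ratio of 0.5 or more, 92.7% had a promoter peak in both animals, and the part of CpG content in the larger share was not tested.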

How the data were processed

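DNase-seq peaks and footprints of 1 library per animal were used, for 2 animals of 1 group. The authors deposited 2 peak lists per animal on mm10, and the larger was used. Peak height is a signal computed by the authors, and no source used here gives its scaling, depth, aligner or caller. The deposited p-value columns hold a false discovery rate, up to 0.05 for cut rates and 0.01 for every footprint, so footprints could not be ranked. Overlap meant at least 1 bp.

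Genes came from GENCODE M21, starts and bases from GRCm38. Promoter windows reached 1 kb from the outermost start, and domains 20 kb from the gene's ends. The members, class lists, markers and motifs were chosen with earlier results of these data known, and 1 motif was added later. Genes were named by a list and ranks written with them; Serpinh1, Lox, Col13a1, Col24a1, further members given for completeness, neighbouring genes and single sites were named after their values were seen. Of 100144 peaks in replicate 2, 4456 (4.45%) overlapped another peak of the same list, and in replicate 1 2056 (1.79%) did. Counting was tested on simulated data. Tools were Python 3.11.15, numpy 2.4.6, pandas 2.3.3, pysam 0.24.0, samtools 1.23.1 and matplotlib 3.10.9. Alternatives changed the window, flank, peak list, overlap, pseudocount and animal. The result of 1 marker list is not reported here.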

Additional observations from a re-analysis of the deposited data

How the results depend on the processing

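With 2 animals the spread between them is the only error, and peak calls near the detection limit decide low promoters. Of 49 promoter counts under alternatives, 42 stayed within 1.5 times. Keeping only the higher 50% of the peaks left 15 of the collagen promoters, 1 basement membrane, 3 beaded filament, 3 FACIT and 0 cartilage promoters open in both animals. Cartilage had 2 within 2 kb. Without replicate 1 or replicate 2, cartilage had 1 to 2, all members 25 to 28, FACIT 5 to 6 and processing genes 33 to 34, while the other classes kept their counts. Median distal density, 0.616 per 10 kb as the mean of both animals, was 0.463 with 10 kb flanks, 0.303 with the smaller peak list, 0.223 with the higher 50% of the peaks and 0.422 without peaks at any annotated start. Merging overlapping peaks, chosen after seeing the data, gave 0.571. Leaving out an animal gave 0.534 to 0.697. Footprint density, 1.42, became 1.68 with 50 kb flanks and 1.33 to 1.52 with 1 animal. The share of peaks found in both animals, 77.0%, was 71.3% when 50% of the peak had to overlap and 80.3% with the smaller list. The median lean of -0.082 was -0.087 with shared peaks only, -0.11 with the smaller list, -0.11 with a pseudocount of 0.1, -0.087 with merged peaks, and -0.12 over genes with a peak in either animal, also chosen after seeing the data. Of named promoter heights, Col1a1 moved in the 500 bp window (2.95), Col1a2 had no value there, and Col6a1, Col14a1 and Col15a1 had none in the smaller list. The causes were not tested. No paired analysis was possible because the study has a single group.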
